A study of Mus musculus with 3 samples.

Results

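The genes described here are 10 members of the transforming growth factor beta (TGF-beta) system: the ligand genes *Tgfb1*, *Tgfb2* and *Tgfb3*, the receptor genes *Tgfbr1*, *Tgfbr2* and *Tgfbr3*, the latency protein genes *Ltbp1*, *Ltbp2* and *Ltbp3*, and the inhibitor gene *Smad7*. They were taken by symbol, and all 10 were found among the 26970 genes of the deposited table. RNA was sequenced from mandibular condyles, with cartilage and subchondral bone still joined, of 4-month-old mice on the C57BL/6 background. The 3 groups were WT (genotype +/+), *Dspp*+/- (labelled HE) and *Dspp*-/- (labelled HO), where *Dspp*-/- is a global knockout and *Dspp*+/- came from crossing it with WT. Per the study's methods, the WT and *Dspp*+/- samples each combined tissue of 3 animals, and how many animals gave the *Dspp*-/- sample is not given in the sources used here. The labels speak of triplicate samples, while the table holds 1 value per gene and genotype, which was taken as that of 1 library of pooled tissue, so there was no spread between replicates and no test, and each difference is one between single libraries.

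TGF-beta is made as an inactive precursor. In this latent complex the growth factor is held by its own propeptide, and latent TGF-beta binding proteins (LTBPs) tether the complex to the matrix until integrins, proteases or other activators release it. The active ligand binds the type II receptor, which phosphorylates the type I receptor, and the signal passes to the nucleus through Smad proteins. In the condyle the pathway is known for its part in chondrocyte maturation, in the coupling of bone formation to resorption, and in osteoarthritis of cartilage and subchondral bone.

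The values are FPKM, the fragments of a gene per kilobase of its length scaled for the depth of the library, so levels can be compared between genes. The depth recovered from them was 20241576 fragments in WT against 23613621 in *Dspp*+/- and 22253158 in *Dspp*-/-. Intervals in brackets are exact 95% intervals from the recovered fragments, which were from 876 to 7163 for a member in a library, and they cover counting error only. Ratios are FPKM ratios unless given as log2, which are log2 ratios of FPKM + 1. A gene was counted as changed when it was at least 2-fold higher or lower on the second scale, and 13026 genes whose mean level reached 1 FPKM were compared. All 10 members passed that filter. Positions are those of the deposited table, which names no build and does not follow GRCm38.

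The libraries also differed in ways that touch every result here. *Xist*, the RNA that female cells make from their inactive X, had 2 fragments in WT against 12084 in *Dspp*+/- and 10563 in *Dspp*-/-. The Y-linked gene *Ddx3y* had 2364, 1365 and 1752 fragments in the same order, so both mutant libraries held RNA of both sexes, and the sex makeup of the pools and the genotype cannot be told apart. The mitochondrial share of the FPKM total was 25.0% in WT against 36.9% in *Dspp*+/- and 37.3% in *Dspp*-/-. Markers of bone and cartilage were lower and most markers of marrow cells higher in both mutant libraries, with the values given after the members. In bulk tissue, fewer cells of a type and less RNA per cell cannot be told apart.

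Promoter sequence was matched for 7 of the 10 genes in RefSeq (GRCm38.p6). The stretches below are from the ligand that was lowest in *Dspp*+/- (*Tgfb2*), a ligand that was less so (*Tgfb1*), and *Ltbp1*. Capitals mark matches on either strand to the motifs searched, which were the TATA box TATAAA, the GC box GGGCGG, the E-box CACGTG, the AP-1 site TGACTCA, the cyclic AMP response element TGACGTCA and the Smad-binding palindrome GTCTAGAC, and each sequence reads 5′ to 3′ along the gene.
*Tgfb1*, chr7:25686752-25687001, plus strand, the 250 bases before the start site: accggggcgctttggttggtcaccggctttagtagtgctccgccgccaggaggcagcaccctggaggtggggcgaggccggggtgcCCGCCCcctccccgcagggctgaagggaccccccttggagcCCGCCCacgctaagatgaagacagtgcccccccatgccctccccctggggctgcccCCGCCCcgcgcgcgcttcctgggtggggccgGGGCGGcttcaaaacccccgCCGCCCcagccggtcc
*Tgfb2*, chr1:186706013-186706042, minus strand, 30 bases that end 23 bases before the start site: aaCACGTGgtttggggagcacaTATAAAac
*Ltbp1*, chr17:75005445-75005474, plus strand, 30 bases that end 54 bases before the start site: gatttgctgccTGACGTCAcgtctgctgca
The *Tgfb1* window held 5 matches to the GC box GGGCGG and none to TATAAA, with 75.2% G and C. The *Tgfb2* window of the same length held 1 TATAAA, 1 E-box CACGTG and no GC box, with 53.6% G and C. Annotated exons of GENCODE M21 cover 167 of its bases and 0 of those of the *Tgfb1* window, so only a part of the *Tgfb2* window is shown. Of 32851 promoter windows of 250 bases, 32.7% held GGGCGG, 12.4% TATAAA and 6.02% CACGTG. The first of the *Ltbp1* windows held 1 TGACGTCA, which 1.55% of all windows held. No window of the 7 genes held the AP-1 site or the Smad-binding palindrome, which 4.46% and 0.167% of all windows held. GC boxes were not particular to *Tgfb1*. The first of the *Tgfbr1* windows, with 74.8% G and C, and the *Ltbp2* window each held 2. All 250 bases of that *Ltbp2* window lie in annotated exons. The windows of *Ltbp3* and *Tgfbr2* held none of the 6 motifs. A match is a run of letters and not a measured site.

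All 3 ligand genes were lower in both mutant libraries than in WT. *Tgfb3* (ENSMUSG00000021253, chromosome 12, 86103519 to 86125815, minus strand), the ligand best known from palate fusion and from chondrocytes, had 47.9 FPKM in WT against 34.5 in *Dspp*+/- and 34.7 in *Dspp*-/-, and was the highest of the 10 genes in every library. Relative to WT, the *Dspp*+/- library stood at 0.721 (0.685 to 0.758) and the *Dspp*-/- library at 0.724 (0.687 to 0.762). The mutant libraries did not differ beyond counting error, with a ratio of *Dspp*+/- to *Dspp*-/- of 0.996 (0.944 to 1.05). Of its exon length, 12.4% overlaps genes on the other strand in GENCODE M21, the largest such overlap among the members, and whether fragments were counted by strand is not given in the sources used here.

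*Tgfb1* (ENSMUSG00000002603, chromosome 7, 25386427 to 25404502, plus strand), the ligand stored in bone matrix and in platelets, had 35.0 FPKM in WT against 24.2 in *Dspp*+/- and 22.5 in *Dspp*-/-. It was 1.45-fold (1.38 to 1.52) higher in WT than in *Dspp*+/- and 1.55-fold (1.47 to 1.63) higher than in *Dspp*-/-. It was the only ligand lower in *Dspp*-/- than in *Dspp*+/- beyond counting error, by a ratio of *Dspp*+/- to *Dspp*-/- of 1.07 (1.02 to 1.13). That interval does not cover scaling. The log2 ratio of *Dspp*+/- to *Dspp*-/- was 0.098 as deposited and 0.049 with scaling without mitochondrial genes.

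*Tgfb2* (ENSMUSG00000039239, chromosome 1, 186354989 to 186438186, minus strand), the ligand that needs the coreceptor encoded by *Tgfbr3* for strong binding to the type II receptor, had 33.8 FPKM in WT against 16.2 in *Dspp*+/- and 20.4 in *Dspp*-/-. It was the only member past the 2-fold threshold, with a log2 ratio of -1.02 in *Dspp*+/- and of -0.70 in *Dspp*-/-. Without the pseudocount it was 2.09-fold (1.98 to 2.20) higher in WT than in *Dspp*+/-, so the interval reaches to just under the threshold. Its log2 ratio in *Dspp*+/- lay between -1.20 and -0.87 over the settings tried, and the 2-fold call was lost with a pseudocount of 5 FPKM and with scaling without mitochondrial genes. It was lower in *Dspp*+/- than in *Dspp*-/-, at a ratio of 0.795 (0.751 to 0.841).

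In *Dspp*+/- against WT, 1 of 10 members was at least 2-fold lower, where 2.86% of all genes compared were, and 0 were at least 2-fold higher, where 4.88% of all genes were. In *Dspp*-/- against WT, 0 members were 2-fold lower or higher, where 1.37% of all genes were lower and 4.05% higher. At a threshold of 1.5-fold, 5 members were lower in *Dspp*+/- and 5 in *Dspp*-/-, against 8.95% and 8.21% of all genes, and 0 were higher in either, against 11.5% and 8.84%. Those in *Dspp*+/- were *Tgfb2*, *Tgfbr1*, *Tgfbr2*, *Ltbp3* and *Smad7*, and those in *Dspp*-/- were *Tgfb1*, *Tgfb2*, *Ltbp2*, *Ltbp3* and *Smad7*. The median log2 ratio of the members was -0.57 in *Dspp*+/- and -0.53 in *Dspp*-/-, beside medians of 0.058 and 0.0070 over all genes compared. Both comparisons use the same WT library.

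**Figure D1:**
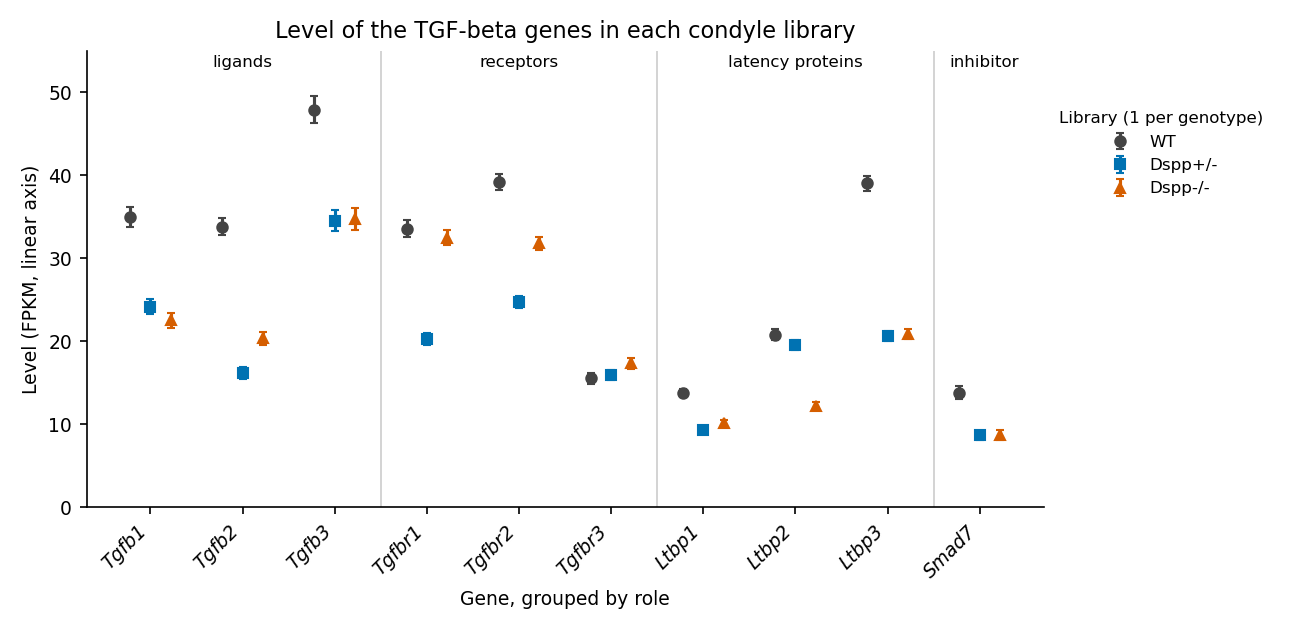
Level of each gene in FPKM (vertical axis, linear) in the 3 condyle libraries, with genes grouped by role along the horizontal axis; points are single libraries and bars are 95% counting intervals. *Tgfb3* is highest in every library, from 34.5 to 47.9 FPKM, and *Tgfbr3* is at 15.5 to 17.3 FPKM in all 3.

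Of the receptor genes, the type I receptor gene differed between the mutant libraries and the coreceptor gene differed little. *Tgfbr1* (ENSMUSG00000007613, chromosome 4, 47353222 to 47414931, plus strand), which encodes the type I receptor kinase, had 33.6 FPKM in WT against 20.3 in *Dspp*+/- and 32.5 in *Dspp*-/-. It was low in *Dspp*+/- alone: WT was 1.66-fold (1.58 to 1.73) higher than *Dspp*+/-, while the ratio of *Dspp*-/- to WT was 0.967 (0.928 to 1.01). Between the mutant libraries the ratio of *Dspp*+/- to *Dspp*-/- was 0.624 (0.597 to 0.653), and no other member but *Ltbp2* differed between them by as much as 1.5-fold.

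*Tgfbr2* (ENSMUSG00000032440, chromosome 9, 115913361 to 116004428, minus strand), which encodes the type II receptor kinase that binds the ligand first, had 39.2 FPKM in WT against 24.7 in *Dspp*+/- and 31.8 in *Dspp*-/-. Relative to WT, the *Dspp*+/- library stood at 0.631 (0.608 to 0.655) and the *Dspp*-/- library at 0.812 (0.783 to 0.841), so *Dspp*-/- lay between the other libraries. *Tgfbr3* (ENSMUSG00000029287, chromosome 5, 107254436 to 107437495, minus strand), the gene of betaglycan, which presents ligand to the signalling receptors, was the member that was not lower, with 15.5 FPKM in WT against 15.9 in *Dspp*+/- and 17.3 in *Dspp*-/-. Its ratio to WT was 1.03 (0.967 to 1.09) in *Dspp*+/-, where the interval holds 1, and 1.11 (1.05 to 1.18) in *Dspp*-/-. Both signs depended on scaling, since the log2 ratio went from 0.034 to -0.15 in *Dspp*+/- and from 0.15 to -0.010 in *Dspp*-/- when hemoglobin, immunoglobulin and muscle genes were left out of the library total. Of the exon bases of *Tgfbr3*, 4.54% overlap a gene on the same strand, the only such overlap among the members.

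All 3 latency protein genes were lower than WT in both mutant libraries beyond counting error. For *Ltbp2* in *Dspp*+/- the difference was small, and the counting interval does not cover scaling. Its log2 ratio there was -0.083 as deposited and -0.057 with scaling without mitochondrial genes. *Ltbp3* (ENSMUSG00000024940, chromosome 19, 5790932 to 5808560, plus strand), whose product binds all 3 latent ligands and is needed for normal bone turnover, had 39.0 FPKM in WT against 20.7 in *Dspp*+/- and 20.9 in *Dspp*-/-. Relative to WT, the *Dspp*+/- library stood at 0.530 (0.510 to 0.550) and the *Dspp*-/- library at 0.535 (0.515 to 0.556), the lowest of the members in *Dspp*-/- and second to *Tgfb2* in *Dspp*+/-. The log2 ratios of -0.89 and -0.87 were short of the threshold. With scaling without hemoglobin, immunoglobulin and muscle genes they were -1.07 and -1.03, past it.

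*Ltbp1* (ENSMUSG00000001870, chromosome 17, 75312563 to 75699507, plus strand), whose product tethers latent TGF-beta to fibrillin fibres, had 13.8 FPKM in WT against 9.36 in *Dspp*+/- and 10.1 in *Dspp*-/-, at ratios to WT of 0.680 (0.644 to 0.718) and 0.734 (0.696 to 0.775). *Ltbp2* (ENSMUSG00000002020, chromosome 12, 84829986 to 84923306, minus strand), a microfibril protein of the same family that does not bind latent TGF-beta, had 20.8 FPKM in WT against 19.6 in *Dspp*+/- and 12.2 in *Dspp*-/-. It was the reverse of *Tgfbr1*, with *Dspp*-/- apart from the other libraries. Relative to WT, *Ltbp2* stood at 0.941 (0.899 to 0.986) in the *Dspp*+/- library and at 0.585 (0.555 to 0.618) in the *Dspp*-/- library, and *Dspp*+/- was 1.61-fold (1.53 to 1.70) higher than *Dspp*-/-. A gene on the opposite strand overlaps 9.34% of its exon bases.

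*Smad7* (ENSMUSG00000025880, chromosome 18, 75500600 to 75529006, plus strand), which encodes an inhibitory Smad that is itself induced by TGF-beta and blocks the type I receptor, had the lowest FPKM of the members in both mutant libraries. In *Dspp*+/- its counting interval overlapped that of *Ltbp1*. *Smad7* had 13.8 FPKM in WT against 8.66 in *Dspp*+/- and 8.71 in *Dspp*-/-. The ratios to WT were 0.627 (0.575 to 0.683) and 0.630 (0.577 to 0.687), and the mutant libraries did not differ beyond counting error (ratio 0.995, 0.906 to 1.09).

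Between the mutant libraries, 0 of 10 members were at least 2-fold lower or higher in *Dspp*+/- than in *Dspp*-/-, where 0.852% and 0.798% of all genes were. At 1.5-fold, *Tgfbr1* was lower and *Ltbp2* higher, where 3.39% and 4.32% of all genes were. The counting interval lay below 1 for 5 members (*Tgfb2*, *Tgfbr1*, *Tgfbr2*, *Tgfbr3* and *Ltbp1*), above 1 for 2 (*Tgfb1* and *Ltbp2*), and held 1 for 3 (*Tgfb3*, *Ltbp3* and *Smad7*).

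**Figure D2:**
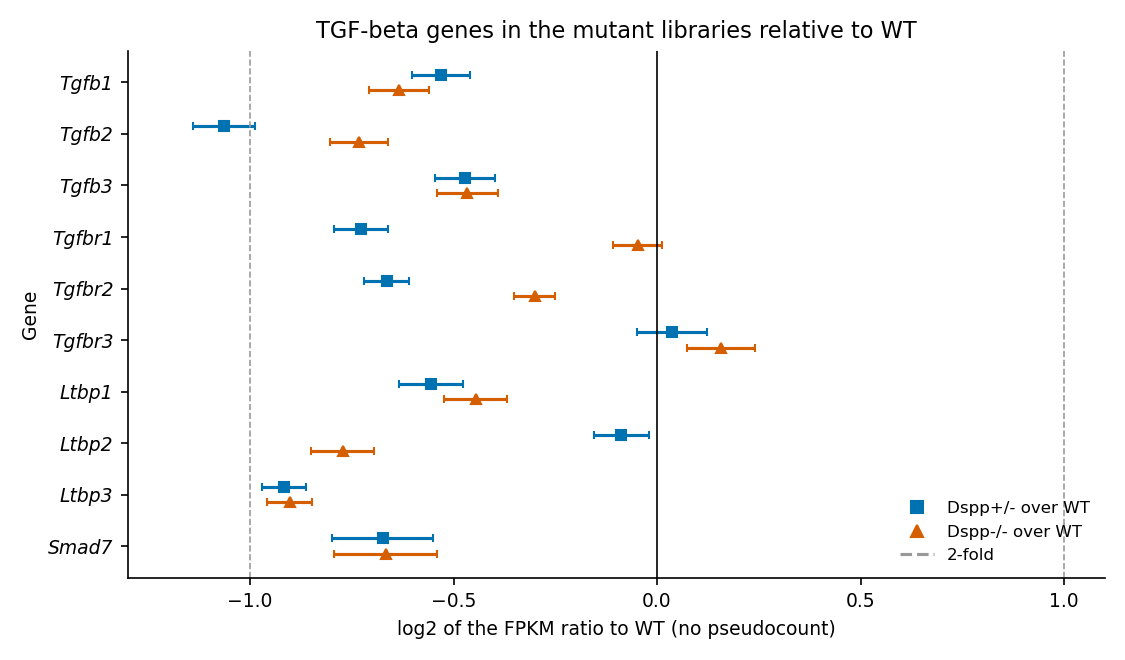
Log2 of the FPKM ratio to WT (horizontal axis, no pseudocount) of each gene (vertical axis) in the *Dspp*+/- and *Dspp*-/- libraries, with 95% counting intervals as bars and dashed lines at 2-fold. *Tgfb2* in *Dspp*+/- is the only point past 2-fold, *Tgfbr1* is near 0 in *Dspp*-/- only, and *Ltbp2* is near 0 in *Dspp*+/- only.

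Within a library, scaling cancels and the makeup of each family can be read directly. The 3 ligands summed to 117 FPKM in WT against 74.9 in *Dspp*+/- and 77.6 in *Dspp*-/-. *Tgfb2* made up 29.0% of that sum in WT against 21.6% in *Dspp*+/- and 26.2% in *Dspp*-/-, and *Tgfb3* made up 41.1%, 46.1% and 44.7%. In WT *Tgfb2* and *Tgfb1* were level within counting error, with an FPKM ratio of *Tgfb2* to *Tgfb1* of 0.967 (0.924 to 1.01). In *Dspp*+/- the same ratio was 0.669 (0.632 to 0.707), and in *Dspp*-/- it was 0.903 (0.855 to 0.954).

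The signalling receptors were near equal. *Tgfbr2* stood over *Tgfbr1* by 1.17-fold (1.12 to 1.21) in WT and 1.22-fold (1.16 to 1.28) in *Dspp*+/-, while in *Dspp*-/- the ratio was 0.979 (0.942 to 1.02), level within counting error. The coreceptor gene *Tgfbr3* took 17.6% of the summed receptor FPKM in WT against 26.2% in *Dspp*+/- and 21.2% in *Dspp*-/-. *Tgfbr1* stood over *Tgfbr3* by 2.16-fold (2.05 to 2.28) in WT and by 1.27-fold (1.21 to 1.34) in *Dspp*+/-.

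Among the latency proteins, *Ltbp3* held 53.0% of the sum of the 3 genes in WT against 41.7% in *Dspp*+/- and 48.4% in *Dspp*-/-. *Ltbp2* was at 0.533 (0.512 to 0.555) of *Ltbp3* in WT, 0.947 (0.907 to 0.990) in *Dspp*+/- and 0.584 (0.554 to 0.614) in *Dspp*-/-. *Ltbp4*, the family member outside the 10, which binds the ligand encoded by *Tgfb1*, was at a higher level than any of them, with 65.8 FPKM in WT against 72.6 in *Dspp*+/- and 64.3 in *Dspp*-/-.

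**Figure D3:**
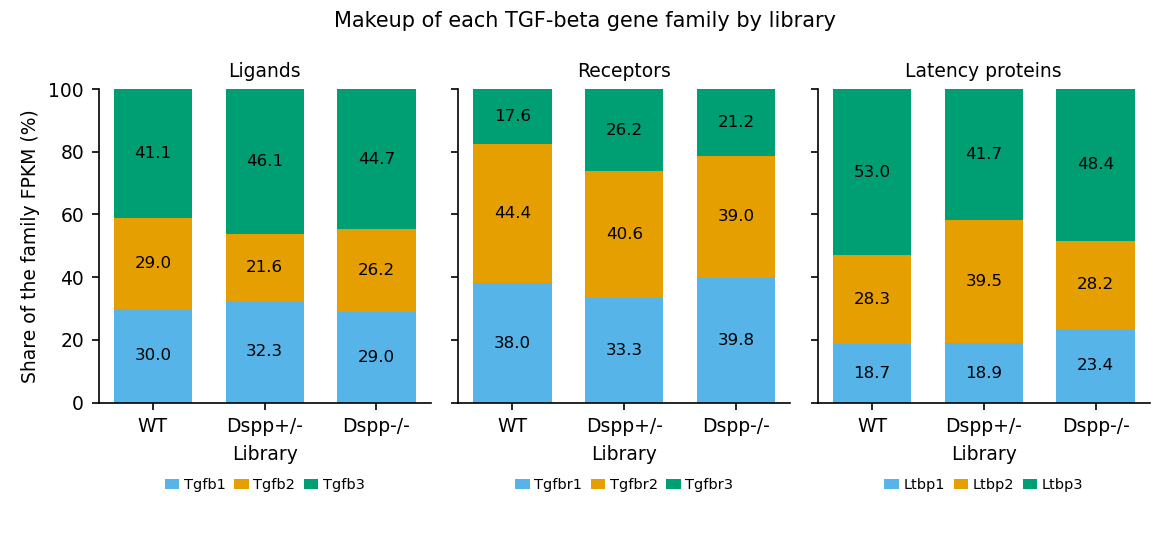
Share of each gene in the summed FPKM of its family (vertical axis, percent) in the WT, *Dspp*+/- and *Dspp*-/- libraries, in 3 panels for ligands, receptors and latency proteins. In *Dspp*+/- the shares of *Tgfb2* (21.6%) and *Ltbp3* (41.7%) are the lowest of the 3 libraries, and those of *Tgfbr3* (26.2%) and *Ltbp2* (39.5%) the highest.

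In WT the order of the members by level ran *Tgfb3*, *Tgfbr2*, *Ltbp3*, *Tgfb1*, *Tgfb2*, *Tgfbr1*, *Ltbp2*, *Tgfbr3*, *Smad7* and *Ltbp1*, where the neighbours *Tgfbr2* and *Ltbp3*, *Tgfb1* and *Tgfb2*, *Tgfb2* and *Tgfbr1*, and *Smad7* and *Ltbp1* had overlapping counting intervals. *Tgfb2* had rank 5 there, rank 7 in *Dspp*+/- and rank 6 in *Dspp*-/-. *Tgfbr1* had rank 6 in WT, rank 5 in *Dspp*+/- and rank 2 in *Dspp*-/-, where its interval overlapped those of both *Tgfb3* and *Tgfbr2*. *Tgfb3* came first in each library, and *Smad7* and *Ltbp1* took the last places. In WT the members stood between percentile 77.5 and percentile 94.4 of the 13026 genes, in *Dspp*+/- between 64.1 and 92.3, and in *Dspp*-/- between 65.2 and 92.4.

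Other genes of the pathway were taken from a list of 40, of which 38 passed the filter. In *Dspp*+/-, 6 of the 38 (15.8%) were at least 2-fold lower and 1 was higher, beside the 2.86% and 4.88% of all genes. In *Dspp*-/- 3 were lower and 0 higher, beside 1.37% and 4.05%. The median log2 ratio was -0.34 in *Dspp*+/- and -0.15 in *Dspp*-/-.

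Of the target genes that TGF-beta is known to induce, 6 passed the filter, of which 2 were at least 2-fold lower in *Dspp*+/- and 0 in *Dspp*-/-. The log2 ratio was below 0 for all 6 in both libraries, where 43.7% of all genes compared were below 0 in *Dspp*+/- and 49.3% in *Dspp*-/-, though *Cdkn2b* in *Dspp*-/- did not differ beyond counting error. The targets had a median of -0.68 in *Dspp*+/- and -0.35 in *Dspp*-/-. *Postn*, the gene of periostin, a matrix protein of periosteum and ligament, had 431 FPKM in WT against 145 in *Dspp*+/- and 351 in *Dspp*-/-. *Ccn2*, the gene of connective tissue growth factor, had 379, 188 and 241 FPKM in the same order, at a log2 ratio of -1.01 in *Dspp*+/-. *Fn1*, the gene of fibronectin and the most abundant target in WT, had 528, 450 and 400 FPKM. So *Postn* was low in *Dspp*+/-, at a log2 ratio to *Dspp*-/- of -1.27, whereas *Fn1* was lowest in *Dspp*-/-. *Tagln*, another target on the list, had from 11 to 20 fragments in a library and was not compared.

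Of the genes that activate or process the ligand, *Bmp1* had the lowest ratios to WT. It encodes a protease that matures procollagen and also cleaves LTBPs, and had 45.7 FPKM in WT against 14.2 in *Dspp*+/- and 22.3 in *Dspp*-/-. It was 3.22-fold (3.09 to 3.36) lower in *Dspp*+/- and 2.05-fold (1.98 to 2.13) lower in *Dspp*-/- than in WT. *Furin*, which encodes the protease that cleaves the precursor, had 16.1, 11.1 and 11.7 FPKM. *Itgb1*, an integrin subunit gene and the most abundant of this group, had 174, 137 and 157 FPKM. The activators did not all go one way. *Thbs1*, the gene of thrombospondin, had 38.4, 48.9 and 49.3 FPKM, and *Itgb6*, an integrin subunit gene, had 2.01, 4.38 and 2.57 FPKM, both higher than WT in both libraries beyond counting error and short of 2-fold on the log2 scale.

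Among the genes of storage and latency, *Emilin1* and *Nrros* went opposite ways. *Emilin1*, whose product holds back the processing of the precursor, had 35.9 FPKM in WT against 14.7 in *Dspp*+/- and 14.1 in *Dspp*-/-, and was past 2-fold in both. *Nrros*, which encodes a protein that holds latent TGF-beta on myeloid cells, was the 1 gene of the pathway at least 2-fold higher on the log2 scale. It had 3.89 FPKM in WT against 9.93 in *Dspp*+/- and 5.64 in *Dspp*-/-. *Lrrc32*, the gene of the related protein GARP of regulatory T cells and platelets, had 2.79, 4.33 and 4.95 FPKM and did not pass 2-fold.

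The inhibitors and the Smads differed from each other. *Bambi*, a decoy receptor gene counted with the coreceptors, had 19.8 FPKM in WT against 7.49 in *Dspp*+/- and 9.25 in *Dspp*-/-, with log2 ratios of -1.29 and -1.02. *Pmepa1*, which encodes a TGF-beta-induced protein that restrains Smad activation, had 38.5, 18.5 and 23.5 FPKM, with log2 ratios of -1.02 and -0.69. The remaining negative regulators had log2 ratios from -0.37 to 0.20, *Ski* being the most abundant of all 7 with 50.4, 38.9 and 38.8 FPKM.

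The signal transducers stood close to WT. *Smad2*, *Smad3*, *Smad4* and *Zfyve9*, which encodes a scaffold of receptor-regulated Smads, had log2 ratios from -0.26 to 0.17 in both mutant libraries, and *Smad4*, the shared partner of the Smads and the most abundant of the 4, had 27.8, 25.9 and 31.5 FPKM. *Eng*, the endothelial coreceptor endoglin and the most abundant coreceptor gene, had 44.2, 47.4 and 42.4 FPKM. For the 4 proteoglycan genes whose products bind TGF-beta in matrix, the median log2 ratio was -0.60 in *Dspp*+/- and -0.22 in *Dspp*-/-, and *Fmod*, the most abundant of them, had 1032, 621 and 621 FPKM.

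**Figure D4:**
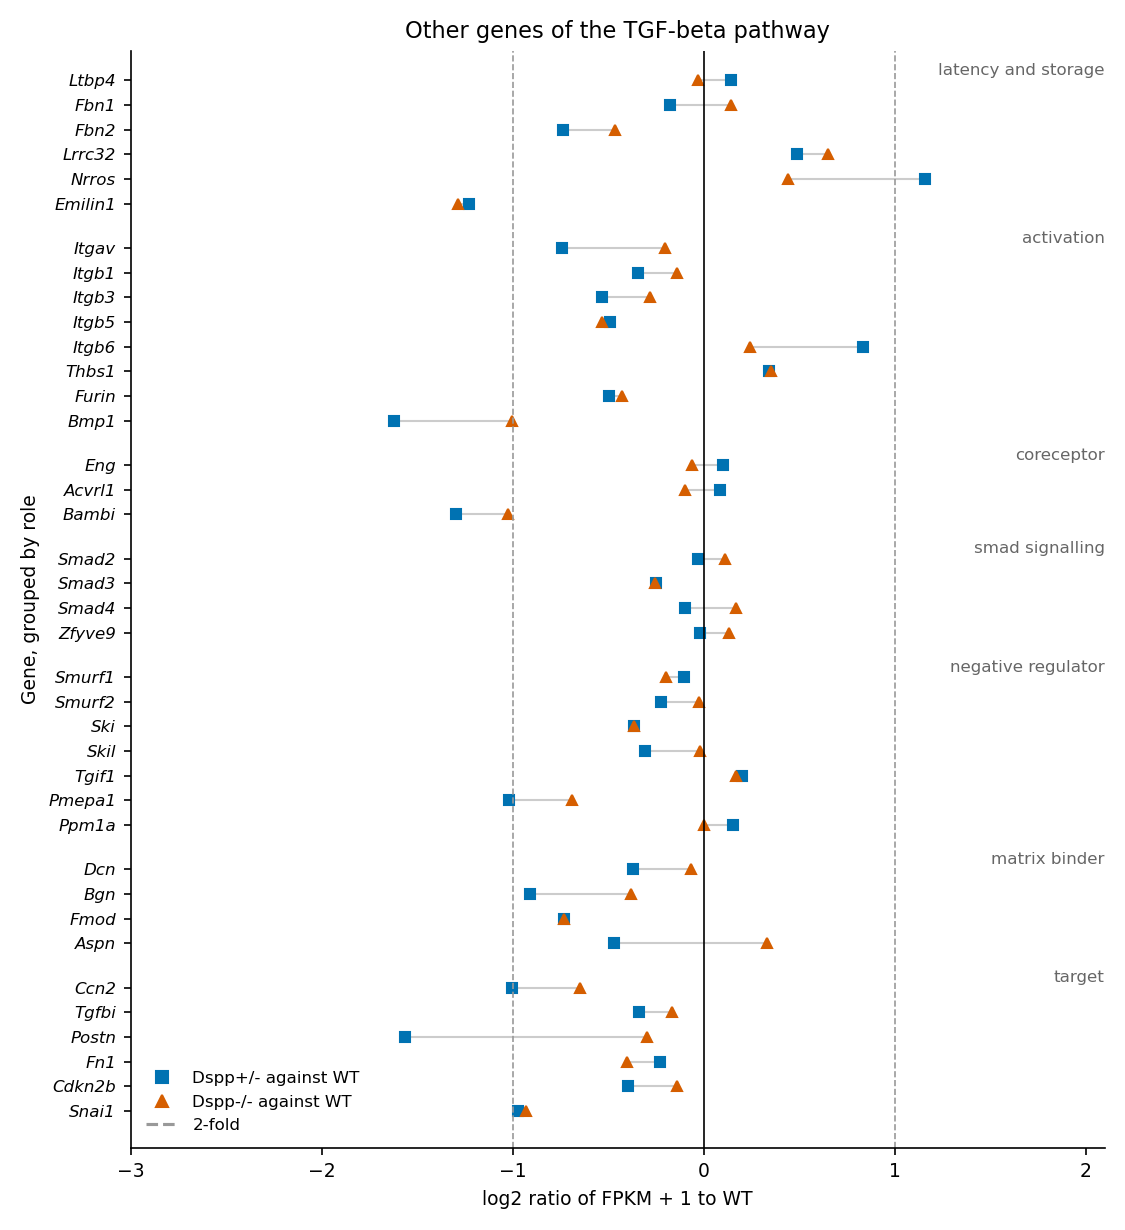
Log2 ratio of FPKM + 1 to WT (horizontal axis) of 38 other pathway genes that passed the filter (vertical axis, grouped by role), for *Dspp*+/- (squares) and *Dspp*-/- (triangles), with dashed lines at 2-fold; each point is a single library against WT. *Bmp1* at -1.62 is the farthest point, and *Nrros* at 1.16 is the only one past 2-fold on the higher side.

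By the distance between their pairs of log2 ratios to WT, the pathway or marker genes nearest to *Tgfb2* were *Pmepa1* (0.016) and *Ccn2* (0.057), of 126 listed genes that passed the filter. Of all genes compared, 1 and 13 were as near, those genes included. For *Tgfb3*, the most abundant member, they were *Furin* (0.046) and *Itgb5* (0.083), with 35 and 105 genes as near. These distances rest on 3 libraries and 2 ratios.

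The markers of the tissue were lower as well. All 9 osteoblast markers were lower in both mutant libraries, beside the 43.7% and 49.3% of all genes, with a median log2 ratio of -1.51 and -0.89 and a summed level of 12150 FPKM in WT against 3213 in *Dspp*+/- and 6426 in *Dspp*-/-. Of them *Col1a1*, the main collagen gene of bone, had the most in WT, with 6675, 1719 and 3610 FPKM. The 9 chondrocyte markers that passed the filter were all lower too, with medians of -1.99 and -1.02 and sums of 1726, 487 and 785 FPKM over 10 markers, *Col2a1* having 761, 94.2 and 308 FPKM. *Matn1* of that list was listed at 0 in *Dspp*+/-, with 2 fragments in WT and 3 in *Dspp*-/-. The 8 osteoclast markers had medians of -1.32 and -0.59 and sums of 2258, 804 and 1317 FPKM, led by *Ctsk* with 863, 279 and 481 FPKM.

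Each of the 3 medians was closer to 0 in *Dspp*-/- than in *Dspp*+/-. Beyond counting error between the mutant libraries, 4 members (*Tgfb2*, *Tgfbr1*, *Tgfbr2* and *Ltbp1*) were likewise closer to WT in *Dspp*-/-, and 3 (*Tgfb1*, *Ltbp2* and *Tgfbr3*) were farther from it. For *Tgfb1* the size of the difference between the mutant libraries depended on scaling, and for *Tgfbr3* the direction did. Without hemoglobin, immunoglobulin and muscle genes in the total, the log2 ratio of *Tgfbr3* was -0.15 in *Dspp*+/- and -0.010 in *Dspp*-/-, which was then closer to WT. The share of osteoblasts, chondrocytes and osteoclasts in the members' values was not tested. Of 7 platelet and megakaryocyte markers, all were higher in both mutant libraries beyond counting error. The 6 that passed the filter were at least 2-fold higher in both, beside 4.88% of all genes compared in *Dspp*+/- and 4.05% in *Dspp*-/-. Their summed level was 23.9 FPKM in WT against 129 in *Dspp*+/- and 138 in *Dspp*-/-, led by *Ppbp* with 10.4, 75.6 and 86.7 FPKM. The part of platelets in the members' values was not tested.

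Most other blood cell markers were higher too. Erythroid markers summed to 904, 3757 and 3637 FPKM (8 of 8 at least 2-fold higher in both), neutrophil markers to 591, 2629 and 3480 FPKM (8 of 8), and B cell markers to 317, 898 and 760 FPKM (5 of 6). Their leading genes were *Hbb-bs* with 425, 1794 and 1886 FPKM, *S100a9* with 232, 916 and 1339 FPKM, and *Igkc* with 301, 841 and 721 FPKM. The part of marrow cells in the members' values was not tested.

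Macrophage and endothelial markers had medians closer to WT, with log2 ratios of 0.13 and -0.18 for 7 macrophage genes and of 0.11 and 0.17 for 6 endothelial genes. The macrophage list was split. In *Dspp*+/- 3 of its genes were lower and 4 higher, with log2 ratios from -0.76 to 0.43. In *Dspp*-/- 5 were lower and 2 higher, from -0.77 to 0.37. None of either list passed 2-fold, and their leading genes were *Cd68* (50.4, 34.7 and 44.3 FPKM) and *Cdh5* (48.9, 56.2 and 52.8 FPKM). The 6 tendon and fibrous tissue markers had medians of -0.21 and -0.24 and none past 2-fold, led by *Thbs4* with 181, 159 and 136 FPKM. Skeletal muscle was present in every library, with *Acta1* at 5609, 8162 and 7150 FPKM, and 12 muscle markers summed to 13163, 18216 and 14144 FPKM. The markers did not move as one: of the 11 that passed the filter 9 were higher in *Dspp*+/- and 5 in *Dspp*-/-, with median log2 ratios of 0.42 and -0.15. *Myh4* (124, 18.2 and 111 FPKM) and *Actn3* (122, 31.0 and 89.5 FPKM), genes of fast fibres, were at least 2-fold lower in *Dspp*+/-. *Tnnc2* of that list was listed at 0 in WT and *Dspp*-/- and had 1 fragment in *Dspp*+/-. Adipocyte markers summed to 33.2, 17.4 and 90.0 FPKM, led by *Cfd* with 23.5, 8.50 and 62.0 FPKM.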

How the data were processed

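RNA of pooled mandibular condyles was sequenced as poly(A)-selected, paired 150-base libraries, 1 per genotype. The submitters' processing notes name HISAT2 2.1.0, StringTie 1.3.3b, DESeq 1.28.0 and FastQC 0.11.5 with no roles, and list the build hg38, although the deposited table holds mouse genes. The authors deposited 1 value per gene and library with no unit named. The deposited values were read as FPKM, since FPKM times merged exon length in GENCODE M21 (26641 genes matched) gave whole fragments within 0.05 for 98.6% to 98.7% of genes with 1 to 99 fragments. The build of the table's positions is not given in the sources used here, and GENCODE M21 (GRCm38) shares both ends with it for only 578 genes.

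Fragments gave exact Poisson intervals for levels and Clopper-Pearson intervals for ratios, at 95%. The floor was 3 fragments, and no ratio was formed at or under it. Log2 ratios used FPKM + 1 and a mean of at least 1 FPKM. With 1 library per genotype no p-value was computed. Motifs were searched in RefSeq promoter windows (GRCm38.p6), and 3 members (*Tgfb3*, *Tgfbr3* and *Smad7*) were not matched there. Overlaps came from GENCODE M21. The steps were tested on simulated data. The members and the gene lists were chosen with earlier results of these data known. Genes named are the 10 members, pathway genes past 2-fold, the most abundant gene of each role or marker list, listed markers at 0, and the 2 listed genes nearest to *Tgfb2* and *Tgfb3*. *Smad2*, *Smad3*, *Zfyve9*, *Lrrc32*, *Tagln*, *Cdkn2b*, *Thbs1*, *Itgb6*, *Vpreb1*, *Myh4*, *Actn3*, *Ddx3y*, *Aspn*, *Fbn1* and *Xist* were named after their values were seen. *Dspp* and 1 listed pathway gene are not reported here. Computations used scipy 1.17.1, pandas 2.3.3 and numpy 2.4.6 in Python 3.11.15. The alternatives were 2 pseudocounts, 2 filters, 4 scalings and a 1.5-fold threshold.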

Additional observations from a re-analysis of the deposited data

Results flagged for a closer look

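Of the members and the other pathway genes, 3 lay on opposite sides of WT in the mutant libraries, each beyond counting error. With 1 library per genotype these differences were not tested. *Aspn*, the gene of asporin, a proteoglycan that binds TGF-beta, had an FPKM ratio to WT of 0.721 in *Dspp*+/- and 1.26 in *Dspp*-/-. *Fbn1*, the gene of the fibrillin to which LTBPs attach, had ratios of 0.875 and 1.11. *Smad4* had ratios of 0.931 and 1.13. With scaling without hemoglobin, immunoglobulin and muscle genes, the log2 ratio in *Dspp*-/- was -0.011 for *Fbn1*, which then lay below WT in both, 0.0079 for *Smad4* and 0.17 for *Aspn*.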

How the results depend on the processing

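The median log2 ratio of the members kept its sign under all 8 alternatives run for it in each comparison. A pseudocount of 5 FPKM moved it to -0.46 in *Dspp*+/- against WT, by construction. The count of members at least 2-fold lower in *Dspp*+/-, which is 1 (*Tgfb2*), was 0 with a pseudocount of 5 FPKM and 0 with scaling without mitochondrial genes. It was 2 (*Tgfb2* and *Ltbp3*) with scaling without hemoglobin, immunoglobulin and muscle genes, where that of *Dspp*-/- was 1 (*Ltbp3*). At 1.5-fold it was 5 in *Dspp*+/- and 5 in *Dspp*-/-, and 1 member was lower and 1 higher in *Dspp*+/- than in *Dspp*-/-. Scaling without hemoglobin, immunoglobulin and muscle genes moved the median of all genes by -0.16 in *Dspp*+/- and -0.14 in *Dspp*-/-, and relative to it the members' median was -0.65 and -0.56, beside -0.62 and -0.54 as deposited. That scaling also moved the share of lower genes among all changed genes from 37.0% to 54.9% in *Dspp*+/- and from 25.4% to 43.0% in *Dspp*-/-. Against WT, 9 of 10 members kept their sign in *Dspp*+/- and 8 in *Dspp*-/- under every scaling run. The exceptions were *Tgfbr3*, and in *Dspp*-/- also *Tgfbr1*, which was at 0.031 with scaling without mitochondrial genes. Of all genes compared, 373 were at least 2-fold lower and 636 higher in *Dspp*+/-, and these counts were 605 and 971 with a pseudocount of 0.1 FPKM, 156 and 185 with 5 FPKM, 272 and 281 with a filter at a mean of 5 FPKM, and 568 and 466 with the scaling without hemoglobin, immunoglobulin and muscle genes. In *Dspp*-/- they were 179 and 527 as deposited, and 363 and 836, 45 and 136, 110 and 228, and 319 and 422 in the same order. No paired analysis was possible because each group has 1 library. The members had at least 876 fragments each, and without replicate libraries the spread between animals is unknown.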
